A study of Homo sapiens with 2 samples.

Results

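The regions described here are the peaks at centromeres and in heterochromatin from a chromatin immunoprecipitation sequencing experiment on EVI1, the zinc finger transcription factor encoded by MECOM. They are the peaks on chromosomes 1 to 22 whose midpoint lies in a band that hg18 classes as centromeric, as variable heterochromatin or as acrocentric stalk, or within 1 Mb of a centromeric band. The rule uses position alone. It was met by 125 peaks in centromeric bands, 80 in variable bands and 119 in the flanks, together 4.67% of the 6943 peaks in the list and 4.94% of the 6565 on chromosomes 1 to 22. The remaining 6241 peaks of these chromosomes are called the other peaks.

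The cells were of the established line SKOV-3, from a human ovarian carcinoma. They were transfected, per the labels' protocols, with the plasmid pCMV-Flag-Evi1Δ324, which expresses Flag-tagged Evi1Δ324, and fixed 3 days later. The precipitate was made with the Flag M2 antibody, and DNA from the same chromatin before precipitation is the input. Each of the 2 conditions is 1 library, and both are from cells with the plasmid; no library from cells without it was analysed here. Only the peak list of the precipitate was analysed here. The tags of a peak in the input, which would be the direct comparison for regions such as these, were not analysed here. With 1 library there is no replicate, and values below are descriptions without a test. Intervals are exact 95% intervals that cover counting error only. They can be too narrow, because peaks lie in groups.

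Centromeres are built on long arrays of alpha satellite, a tandem repeat present in a great many copies. Around them lies constitutive heterochromatin with other satellites and recently duplicated segments, which stays condensed and is marked by methylation of histone H3 at K9. Assemblies of the hg18 generation hold little of these arrays and show most of each centromere as an unplaced stretch, or gap, with short pieces of satellite at its edges. EVI1 binds DNA through its zinc fingers and is known to associate with the H3K9 methyltransferase SUV39H1. Evi1Δ324 is a splice form that lacks part of the first zinc finger domain.

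The band classes differ in how much sequence a peak could fall in. The 44 centromeric bands span 102.7 Mb, of which 21.4 Mb (20.8%) is placed sequence. The 16 variable bands span 90.6 Mb, of which 19.8 Mb (21.8%) is placed. The 5 stalk bands, the short-arm sites of ribosomal RNA genes on chromosomes 13, 14, 15, 21 and 22, have no placed sequence in hg18, so no peak could lie there.

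These peaks held far more tags than their number would give. A tag is a sequenced fragment counted in the peak. Pericentromeric and heterochromatic peaks held 26615 tags, 37.2% of the 71591 tags in peaks of chromosomes 1 to 22, in 2.66% of the placed sequence. That is 373.1 tags per placed Mb, against 17.2 elsewhere on these chromosomes, a ratio of 21.6. The number of peaks differed much less, at 4.54 per placed Mb against 2.39.

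A few very deep peaks made up most of this sum. The deepest peak held 19.3% of the 26615 tags, the 3 deepest 45.9% and the 10 deepest 70.1%. At least 100 tags were found in 24 peaks of the set (7.41%, interval 4.80 to 10.8), and these held 88.5% of the tags. Over the whole list 0.691% of peaks had 100 tags or more, and among the other peaks of chromosomes 1 to 22 it was 18 of 6241 (0.288%, interval 0.171 to 0.455). The typical peak was small in both sets, with a median of 6 tags (quartiles 5 and 10) here and 5 (quartiles 5 and 6) among the others. Without the 10 deepest peaks the share of tags was 15.0% instead of 37.2%.

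The deepest peak of all lay in 6p11.1, the centromeric band of the short arm of chromosome 6 (58884056 to 58888135), with 5144 tags over 4080 bp. Its deposited fold, read as the height of the peak over a background, was only 1.66, the lowest of the set. Its last 10 bases lay inside the unplaced stretch of the centromere, and it was the only peak of chromosomes 1 to 22 with any base outside placed sequence. None of the other 11 peaks on chromosome 6 had 20 tags.

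The next 2 in depth lay beside the centromere gaps of chromosomes 10 and 16. In 10q11.1 (chromosome 10, 41710100 to 41717311) the peak had 3782 tags, a fold of 4.01 and a width of 7212 bp, which made it the widest of the set. In 16q11.2, the heterochromatic band of the long arm of chromosome 16, the peak from 44987853 to 44993119 had 3280 tags, a fold of 3.29 and a width of 5267 bp. Only 1 further peak lay in that band, with 5 tags and a fold of 12.1. Both deep peaks were under 50 kb from the gap, with midpoints 38.8 and 47.2 kb away.

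The centromeric band 10q11.1 held 10 peaks, 10.9 times the number expected from its 0.375 Mb of placed sequence (interval 5.22 to 20.03). Deep and shallow peaks shared the band. There were 6 peaks of 45 to 3782 tags, all with folds of 3.64 to 6.30. The other 4 had 5 or 6 tags and folds of 12.5 to 18.3. A peak of 1623 tags (41916697 to 41919443, fold 3.64) began 3 bases after the end of a smaller unplaced stretch within the band. A peak of 1053 tags (41677958 to 41681853, fold 5.12) lay 4.96 kb from the centromere gap.

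The most peaks of 100 tags or more were in 4p11, the centromeric band of the short arm of chromosome 4, which held 12 of the 24. Its 15 peaks had 6470 tags in 0.505 Mb of placed sequence, a ratio of 12.1 to the expected number (interval 6.79 to 20.01). They fell into separate groups. A run of 8 peaks covered 29.2% of 37.2 kb (48794912 to 48832097), with 31 to 1124 tags each and folds of 3.50 to 5.32. A further 2 peaks, of 434 and 368 tags, followed 13.5 kb on. A run of 4 peaks covered 50.7% of 19.5 kb (49329890 to 49349350) and ended 5.52 kb from the centromere gap, with 478 to 742 tags each and folds of 4.46 to 6.33. The 1 shallow peak of the band, of 6 tags, had a fold of 20.5. The deepest of 4p11, with 1124 tags over 3981 bp (48814210 to 48818190, fold 3.94), was 539 kb from the gap, farther than the run of 4. The remaining 4 of the 10 deepest peaks were also in 4p11, at 742, 726, 596 and 583 tags; their folds were 6.33, 4.99, 4.46 and 3.70.

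**Figure D1:**
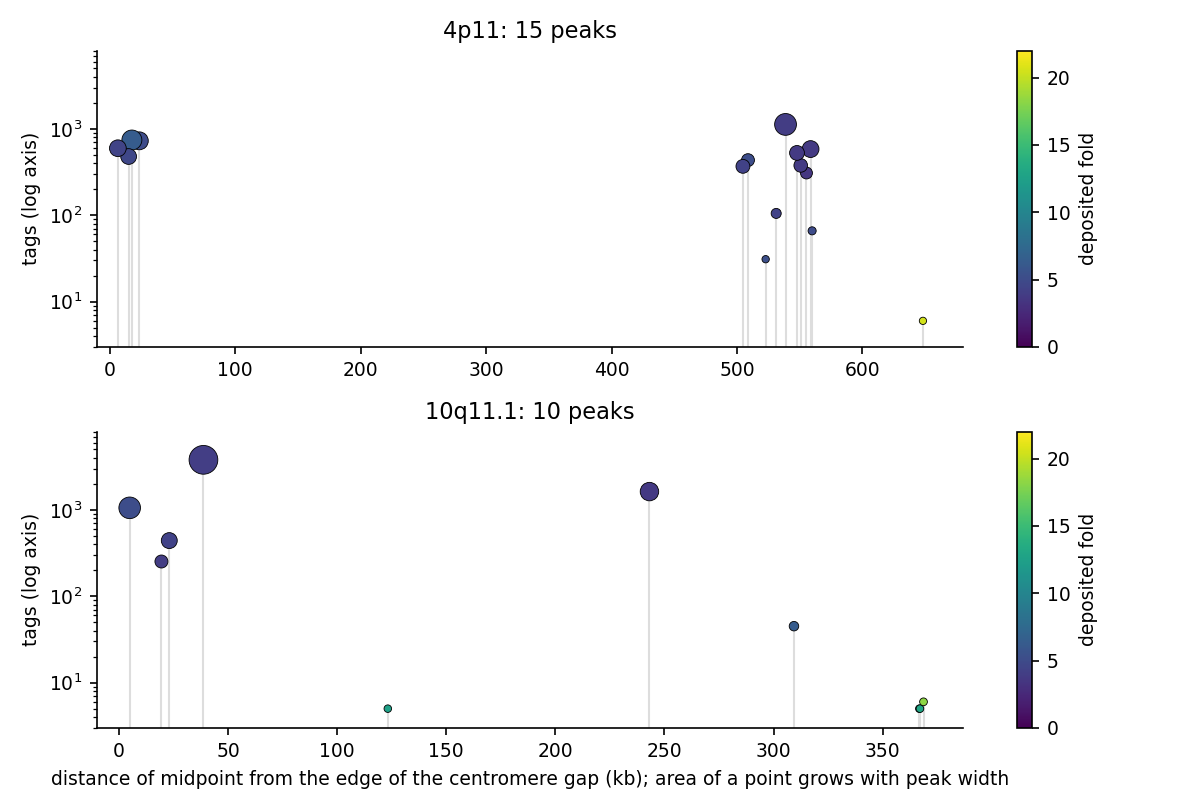
Each point is a peak of 4p11 (15 peaks) or 10q11.1 (10 peaks), placed by the distance of its midpoint from the edge of the centromere gap (kb) and its tags (log axis), with colour for the deposited fold and area growing with width. Peaks with many tags are wide and have low folds, and the peaks of 5 or 6 tags in the same bands have folds of 12.5 to 20.5.

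The deep peaks of the set all had low folds. All 24 peaks of 100 tags or more had a fold of 1.66 to 6.33 (median 3.98), and 23 of them were 500 bp or wider (range 492 to 7212, median 1847). Among the 18 other peaks of that depth on chromosomes 1 to 22, of which 7 lie in 3q26.2 where MECOM is, the fold ranged from 1.48 to 74.4. Their median fold was 3.01 and 13 of the 18 were under 10, so low fold at this depth was not limited to the set. Their median width was 336 bp. Tags were less crowded here than there, at a median of 284 per kb against 513. The medians for the 18 take the 7 peaks of 3q26.2 together with the 11 elsewhere. The cells carried a plasmid that expresses Evi1Δ324, and whether tags in 3q26.2 come from it was not tested. Over the whole set, 27 peaks (8.33%) were 500 bp or wider, against 0.979% of the whole list.

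The median folds of both sets were close up to 7 tags and apart from 8 to 99 tags. At exactly 5 tags, the minimum of the list, the median fold was 14.7 in both sets, with quartiles of 13.0 and 17.5 here and 14.3 and 19.4 among the other peaks. A low tail was already present, with a fold under 10 in 7 of 132 peaks here and in 11 of 3744 there. At 6 or 7 tags the medians were 14.6 and 15.0, and 9 of 77 and 62 of 1674 peaks were under 10. At 8 to 19 tags they were 10.8 (63 peaks) and 16.7 (682 peaks). At 20 to 99 tags they were 5.77 and 24.8, and the quartiles, 5.34 and 6.94 here against 14.6 and 32.3 there, did not overlap. At 100 tags or more both were low, at 3.98 and 3.01. More tags thus went with a lower median fold in the set, whereas among the other peaks the median was higher up to 99 tags and lower than in the set beyond. Of the 28 peaks of 20 to 99 tags, 27 had a fold under 10, compared with 20 of 123 other peaks. Spearman's rho between tags and fold was -0.552 across the set and 0.0163 across the 6241 others; peaks share 1 library and are not independent, and the fold is built from the same tags.

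Counted over all depths, 90 of the pericentromeric and heterochromatic peaks (27.8%, interval 22.97 to 33.0) had a fold under 10, against 4.18% of the whole list. A fold under 5 was found in 26 (8.02%), against 0.677% of the list. At the other end, 19 (5.86%, interval 3.57 to 9.01) had a fold of 20 or more, against 11.6% of the list. Among peaks within 5 Mb of a chromosome end, it was 193 of 787 (24.5%), and 31 of those 787 (3.94%) were under 10. For folds of 20 or more, peaks of chromosome ends and of centromeres were thus on opposite sides of the list. For folds under 10, those near ends (interval 2.69 to 5.54) were close to the 4.18% of the list. Both sets had a median width of 132 bp and a median of 6 tags. At least 20 tags were found in 52 of the centromeric set (16.0%, interval 12.2 to 20.5), in 63 of the 787 (8.01%) and in 3.01% of the whole list.

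**Figure D2:**
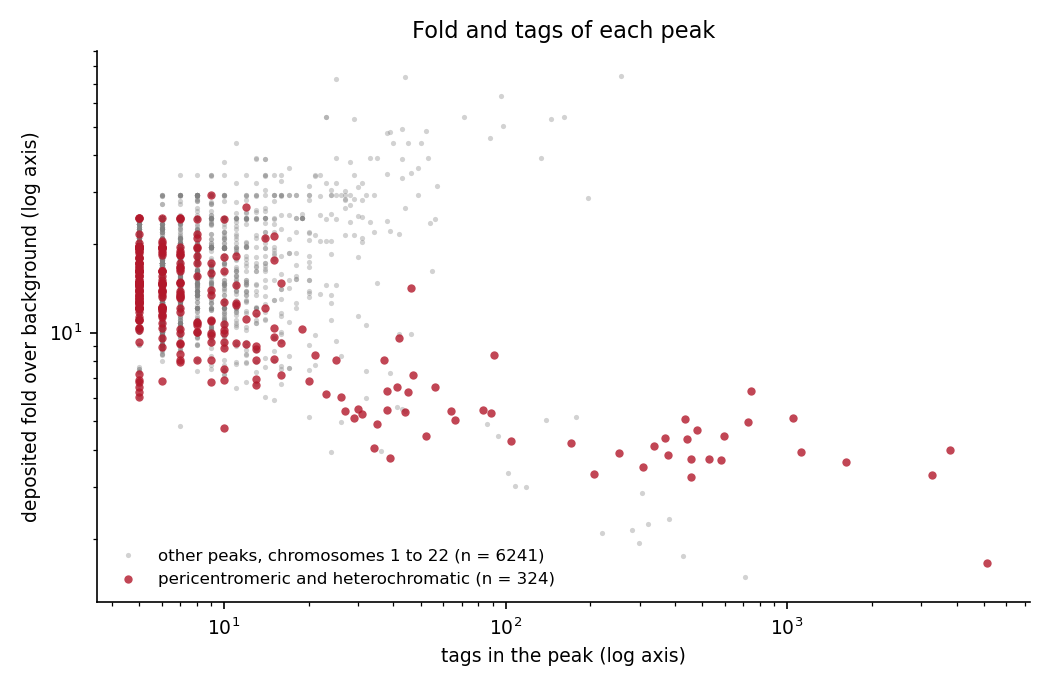
Each point is a peak on chromosomes 1 to 22, placed by its tags and its deposited fold (both log axes), red for the pericentromeric and heterochromatic peaks and grey for the other 6241. From about 20 tags upward the red points lie low, with 27 of 28 under a fold of 10 at 20 to 99 tags and a highest fold of 6.33 at 100 tags or more, whereas most grey points of 20 to 99 tags lie above 10; at 100 tags or more, 13 of 18 grey points are under 10 too.

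The excess of peaks over placed length also depended on depth. The set compares with 174.7 expected peaks if peaks followed placed length on chromosomes 1 to 22, a ratio of 1.85 (interval 1.66 to 2.07). Among peaks of 5 tags, which were 40.7% of the set against 59.5% of the list, the ratio was 1.28 (132 peaks, interval 1.07 to 1.52). It was 1.65 at 6 or 7 tags, 3.18 at 8 to 19 and 6.97 at 20 to 99 (interval 4.63 to 10.1). At 100 tags or more it was 21.5 (24 peaks against 1.12 expected, interval 13.8 to 32.0). Among peaks with a fold above the list median of 14.7, the ratio was 1.22 and the share of tags 2.85%.

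By class, centromeric bands were at 2.39 (interval 1.99 to 2.85), variable bands at 1.65 (1.31 to 2.06) and flanks at 1.61 (1.33 to 1.93). Centromeric bands held 20150 tags, 75.7% of the sum, variable bands 4210 and flanks 2255. Of the variable bands' tags, 3280 were in the 1 peak of 16q11.2. The median fold was 11.9 in centromeric bands and 14.7 in both other classes, and the median width was 132 or 133 bp in all 3.

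The edge of the rule, at 1 Mb from a centromeric band, marked no sharp step in number. From 0.5 to 1 Mb, just inside it, the ratio was 1.74 (65 peaks, interval 1.35 to 2.22), and from 1 to 1.5 Mb, just outside, it was 1.28 (51 peaks, interval 0.954 to 1.68). The median was 6 tags on both sides of that line. At least 20 tags were found in 4 of the 65 peaks just inside, all in 16p11.2 with 29, 47, 91 and 171 tags. Just outside it was 0 of 51, which allows a share of up to about 5.88%, taken as 3 divided by the number of peaks. The share just inside was 6.15%, close to that limit, so these counts are too small to settle a difference in depth. From 0 to 0.5 Mb 11 of 54 peaks had 20 tags or more, and the ratio was 1.47. Farther out the ratios were 1.11 from 1.5 to 2 Mb, 1.16 from 2 to 5 Mb and 1.01 from 5 to 10 Mb.

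**Figure D3:**
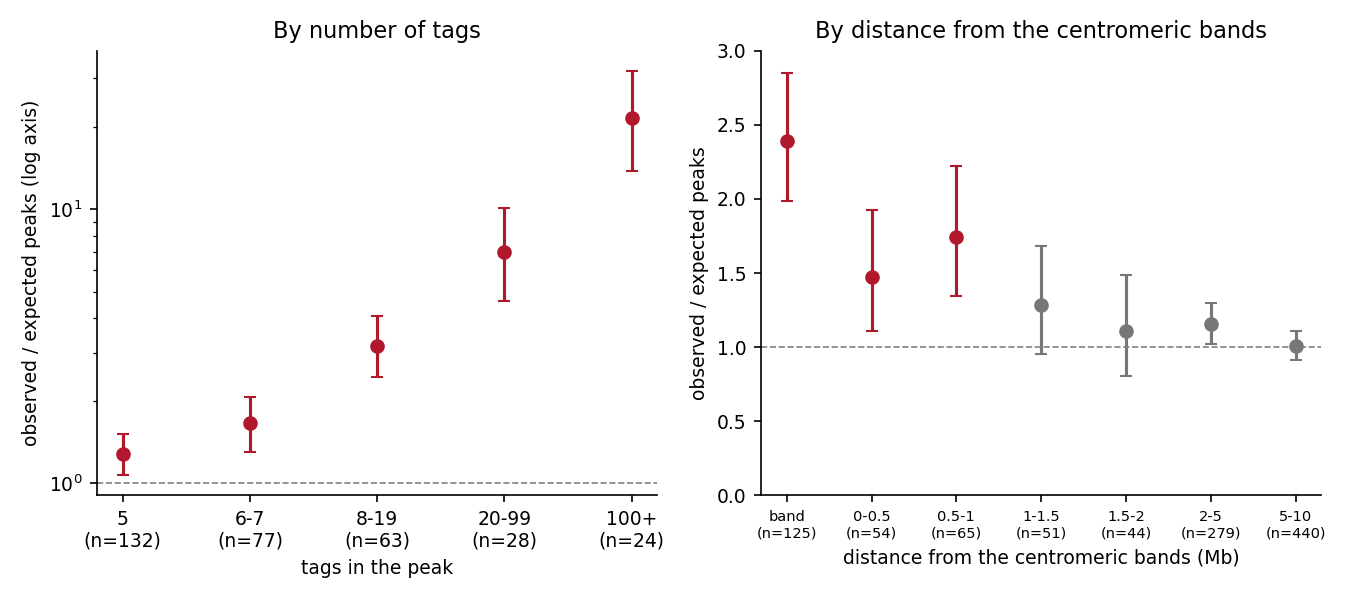
Ratio of observed to expected peaks with exact Poisson 95% intervals, on the left for pericentromeric and heterochromatic peaks by number of tags (log axis) and on the right by distance from the centromeric bands in Mb, red inside the rule and grey outside it. The ratio is 1.28 at 5 tags and 21.5 at 100 or more, and it is 2.39 in centromeric bands and 1.01 at 5 to 10 Mb.

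Tags were concentrated beside the centromere gap, the largest unplaced stretch that overlaps the centromeric bands. Within 100 kb of it lay 36 peaks (11.11%) with 64.6% of the 26615 tags. Within 10 kb there were 5 peaks on 4 chromosomes, with 6828 tags in 0.4 Mb of placed sequence, or 17.1 tags per placed kb. Of these 6828 tags, 5144 were in the 1 peak of 6p11.1, so that value rests mostly on a single peak. From 10 to 100 kb the density was 2.88 tags per kb, from 100 to 500 kb 0.194, from 500 kb to 1 Mb 0.303 and beyond 1 Mb 0.0359. Of the 5242 tags from 500 kb to 1 Mb, 3928 were in 11 peaks of 4p11. The median fold was 4.76 within 10 kb, 7.97 from 10 to 100 kb, 12.1 from 100 to 500 kb, 13.8 from 500 kb to 1 Mb and 14.7 beyond.

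Most gap edges showed nothing of the kind. The 22 gaps have 40 edges with placed sequence, and 19 edges had no peak within 100 kb. At 15 edges there were peaks within 100 kb and none of them had 20 tags. Only 5 edges had a peak of 100 tags or more that near, on the short-arm side of chromosomes 2, 4 and 6 and the long-arm side of chromosomes 10 and 16. In none of these chromosomes did both sides have one. On chromosome 10 the short-arm edge had peaks of 25 and 35 tags, and on chromosome 16 the highest on the short-arm side was 13.

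Peaks of 20 tags or more were more frequent within 100 kb of an unplaced stretch than beyond it, in both sets. Counting every unplaced stretch, 16 peaks of the set lay within 10 kb of one, with a median of 32 tags (range 5 to 5144), and 9 of them had 20 or more. Among the other peaks of chromosomes 1 to 22, 13 lay that near, with a median of 6 tags (range 5 to 25), and 1 had 20 or more. Within 100 kb the median was 8 tags for 92 peaks of the set and 6 for 110 of the others, and 15 and 0 of these had 100 tags or more. The count of 0 allows a share of up to 2.73%, and beyond 100 kb only 18 of 6131 others had that depth. This count therefore cannot show a difference by distance among the others. At least 20 tags were found in 30 of the 92 (32.6%) and in 10 of the 110 (9.09%). Beyond 100 kb these shares were 9.48% and 2.14%. Repeat content, mappability and base composition of the peaks were not tested.

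**Figure D4:**
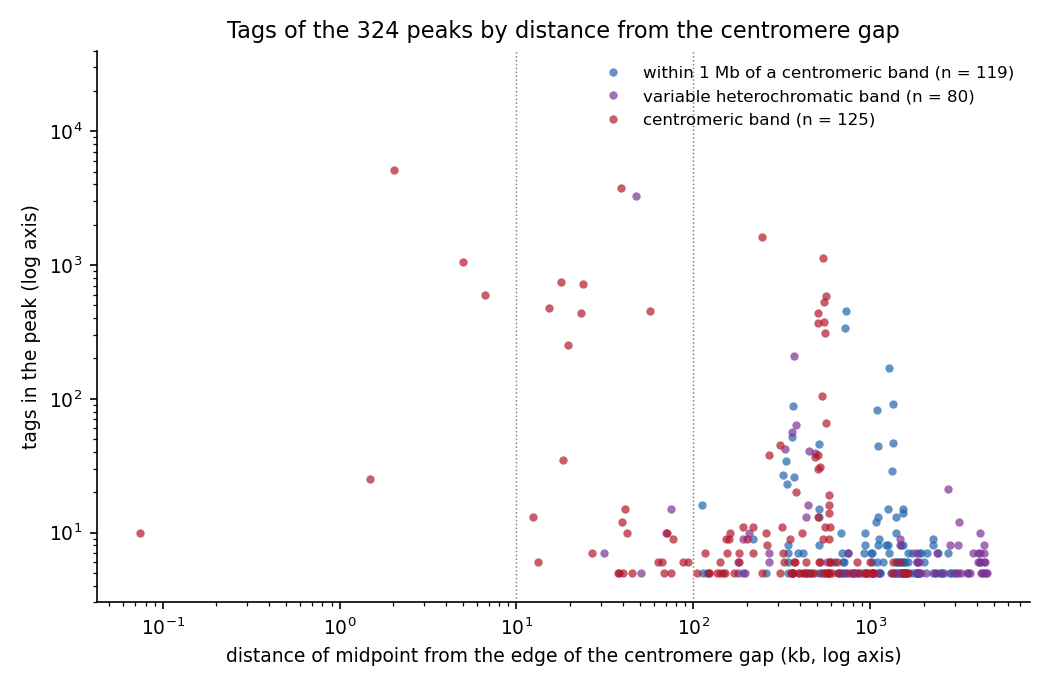
Each point is a pericentromeric or heterochromatic peak, placed by the distance of its midpoint from the edge of the centromere gap (kb) and its tags (both log axes), coloured by band class; dotted lines mark 10 and 100 kb. The points of 5144, 3782 and 3280 tags lie within 100 kb, a second group of up to 1124 tags lies near 500 kb, and most points lie farther out at 5 to 10 tags.

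All 22 chromosomes had at least 1 such peak, and the tags were on few of them. Chromosome 10 held 7363 tags, chromosome 4 6496, chromosome 6 5227, chromosome 16 3842 and chromosome 2 1382. These 5 had 91.3% of the tags in 91 peaks. The other 17 chromosomes had 2305 tags in 233 peaks. On 16 chromosomes no peak of the set had 100 tags, and on 11 none had 20.

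The number of peaks was above the expected on 20 of 22 chromosomes, with an interval above 1 on 12 and below 1 on none. Among the 21 chromosomes with at least 3 expected peaks, chromosome 21 had the highest ratio, with 14 peaks against 3.50 expected (3.998, interval 2.19 to 6.71). Chromosome 16 was at 3.90 (21 peaks), chromosome 1 at 3.74 (16 peaks), chromosome 4 at 3.20 (20 peaks) and chromosome 10 at 2.85 (19 peaks). The lowest was chromosome 13 with 2 peaks against 3.63 (0.551, interval 0.0668 to 1.99). Chromosomes 18, 14, 8 and 5 were at 0.966, 1.01, 1.06 and 1.10. The intervals of these 5 all held 1, so a difference from placed length was not detectable at their numbers of peaks.

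Chromosome 7 had the highest ratio when each chromosome was set against its own density. Against all chromosomes it was at 2.24 (interval 1.23 to 3.76), with 7 chromosomes higher. It had 14 peaks in 2.55 Mb of placed sequence at its centromere, 5.49 per Mb, and 74 in all its other sequence, 0.486 per Mb, compared with 2.39 per Mb over chromosomes 1 to 22 outside the set. Against its own density the ratio was 9.67 (interval 5.29 to 16.2), and next came chromosome 15 at 4.62. Of its 14 peaks, 8 had 20 tags or more. In 7q11.21, on the long-arm side, 6 of 9 peaks had 23 to 89 tags and folds of 4.06 to 6.19. In 7p11.1, 2 of 5 peaks had 30 and 38 tags with folds of 5.50 and 6.34. Chromosome 19 was on the other side: its 32 peaks gave 1.41 against all chromosomes and 0.722 (interval 0.494 to 1.02) against its own dense sequence. Measured this way, 10 chromosomes had an interval above 1 and the ratio over all chromosomes was 1.60.

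**Figure D5:**
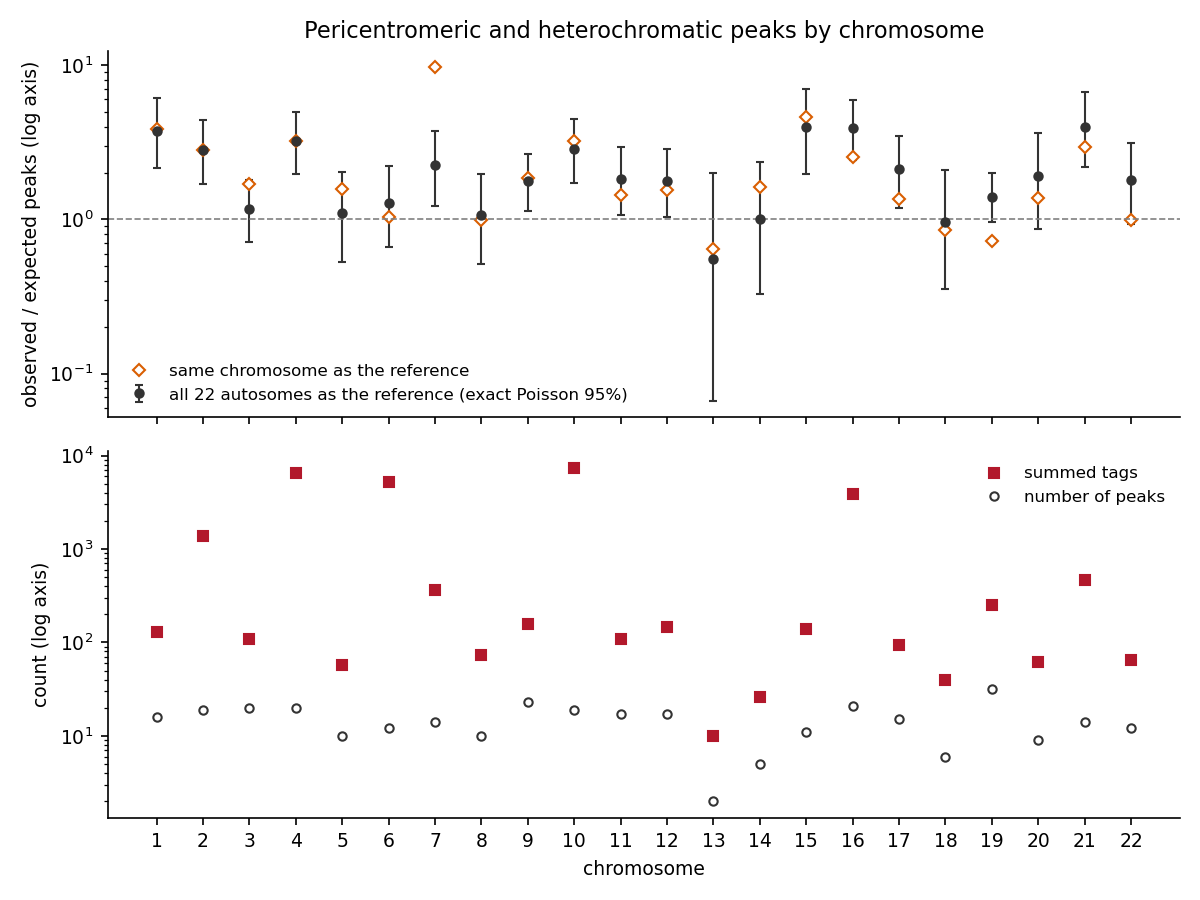
The upper panel gives the ratio of observed to expected peaks per chromosome (log axis), with exact Poisson 95% intervals against all autosomes (black) and, as open diamonds, against the same chromosome; the lower panel gives the summed tags and the number of peaks (log axis). Chromosomes 10, 4, 6 and 16 lead in tags, from 7363 to 3842, without leading in number of peaks, and chromosome 7 has the highest diamond at 9.67.

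Several pericentromeric bands had peaks of 20 tags or more with folds under 10. In 21p11.2, a variable band on the short arm of chromosome 21 with only 0.280 Mb of placed sequence, all 5 peaks had 39 to 207 tags and folds of 3.33 to 9.63. Against 0.686 expected, the ratio was 7.29 (interval 2.37 to 17.0). In 16p11.2, which borders the centromere of chromosome 16 and is rich in duplicated segments, 14 peaks lay in the 1 Mb flank with 518 tags. Their ratio was 6.35 (interval 3.47 to 10.7), and 6 of them had 29 to 171 tags with folds of 4.24 to 8.43. In 10p11.1, across the centromere from the deep peaks of 10q11.1, 4 of 6 peaks had 20 to 38 tags with folds of 4.91 to 8.10. In the flank of 2p11.2, 2 peaks of 454 and 337 tags (folds of 3.25 and 4.13) lay 2.35 and 9.91 kb from an unplaced stretch of chromosome 2 outside the centromere.

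Other bands with many peaks had few tags and higher median folds. The variable bands 9q12, 19q12, 19p12 and 3q11.2 held 22, 19, 13 and 12 peaks. Their median folds were 15.4, 13.5, 16.2 and 17.3, and their highest tags 21, 15, 41 and 7. Single low folds were present in all but 3q11.2, since the lowest folds were 8.38, 6.05, 6.56 and 14.0. The ratio to placed length was 2.21 for 9q12 (interval 1.38 to 3.34), and the intervals of the other 3 held 1. The bands 11q11 and 22q11.1 had 11 and 9 peaks with at most 11 and 6 tags. In all, 25 bands or flanks had at least 5 of these peaks.

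The centromeric band 2p11.1 had 11 peaks with 558 tags, a ratio of 6.51 (interval 3.25 to 11.7). Of these, 1 peak had 454 tags and lay 56.6 kb from the centromere gap, and the others had 5 to 19. The flank of 15q11.2 had 9 peaks, 1 with 46 tags. Those of 8p11.21, 12p11.21, 21q11.2, 6p11.2 and 17p11.2 had 7, 6, 6, 5 and 5 peaks with at most 15 tags. The bands 1q12, 17q11.1, 3p11.1, 16p11.1 and 6q11.1 had 7, 7, 6, 5 and 5 peaks, also with at most 13 tags. Shallow peaks of this kind were thus spread over both arms of many chromosomes.

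Peaks also had a neighbour within 10 kb more often than in the list as a whole. A neighbour downstream was at most 10 kb away for 60 of these peaks (18.5%, interval 14.4 to 23.2), against 9.9% of all 6565 peaks. It was 7.08% for peaks farther than 5 Mb from a chromosome end and outside the set, and 25.9% for those near an end. Within 1 kb the shares were 8.64% here (interval 5.82 to 12.2) and 6.01% among the other peaks (5.43 to 6.63), and these intervals overlap. Spacing was not adjusted for the density of peaks, which was 4.54 per placed Mb here and 2.39 elsewhere. There were 6 runs of at least 4 peaks with midpoints at most 10 kb apart, which held 31 peaks and 22.2% of the tags. Apart from the runs of 8 and 4 peaks in 4p11 described above, they spanned under 3 kb, and most of their folds were ordinary.

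The one with the most peaks was in 2p11.1 (chromosome 2, 91101191 to 91103251), with 7 peaks of 5 to 19 tags within 2.06 kb. Its folds were 10.3 to 15.1 and its peaks covered 61.2% of that length. In 15q11.2 (chromosome 15, 18774562 to 18776283) 4 peaks of 8 to 46 tags lay within 1.72 kb, at folds of 6.63 to 17.7. In 8p11.21 (chromosome 8, 42428215 to 42429359) 4 peaks of 6 to 15 tags lay within 1.15 kb at folds of 16.2 to 21.3. In 9q12 (chromosome 9, 69390970 to 69393564) 4 peaks of 6 to 10 tags lay within 2.60 kb at folds of 14.7 to 24.2. Smaller groups with low folds lay in other bands, such as 2 peaks in 10q11.1 (3.90 and 4.36) and 3 in 7q11.21 (4.46 to 6.03). Groups of peaks in these regions thus had low folds in some places and ordinary ones in others.

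The highest folds belonged to shallow peaks away from the gaps of the centromeres. The highest, 29.4, was a peak of 9 tags in 9q12 (chromosome 9, 66685467 to 66685663), 1478 kb from the centromere gap. A peak of 12 tags in 19q12 (chromosome 19, 35617939 to 35618095) followed at 26.8. Next were 6 peaks tied at 24.5, in 9q12, 8p11.21, 13q12.11, 4p12, 19p12 and 19q12, with 5 to 7 tags each. None of these 8 peaks was in a centromeric band. The nearest of them to a centromere gap was that of 19p12, at 268 kb. Other unplaced stretches could be closer. The peaks of 9q12 with folds of 29.4 and 24.5 lay 32.4 and 3.12 kb from one.

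At the minimum depth, a further measure of the background could be read from the fold. Folds of peaks with 5 tags often lie on whole multiples of a single step, and a peak on a multiple was taken to have the lowest background. Of the 132 peaks of 5 tags, 43 (32.6%, interval 24.7 to 41.3) lay on a multiple, and of the 3744 others 1413 did (37.7%, interval 36.2 to 39.3). These intervals overlap. A fold clearly below 3 steps was found in 34.8% and 23.7% of them.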

How the data were processed

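Chromatin immunoprecipitation sequencing of SKOV-3 cells was analysed from 1 peak list; the input sample was not analysed here. Per the labels' protocols, chromatin was fixed for 10 minutes in 1% formaldehyde and sheared to 200 to 500 bp, and fragments of 200 to 300 bp were sequenced after 15 PCR cycles. Positions are on hg18 (per the submitters' processing notes). How reads were aligned and peaks called is not given in the sources used here. No header comes with the deposited list. Its first value was taken to be a fold, the authors' ratio of peak height to a background, and its second as the unscaled count of tags as deposited; both readings come from the values. PCR duplicates may be among the tags, and the total depth of the library is unknown.

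Midpoints were placed on hg18 bands (circlize 0.4.16) and placed contigs (IRanges 2.36.0, R 4.3.3), and positions are given from 1, with starts taken as counted from 0. Python 3.11.15, pandas 2.3.3 and scipy 1.17.1 were used. The rule of position selected 324 peaks. Expected peaks are the 6565 peaks of chromosomes 1 to 22 in proportion to 2681 Mb of placed length. Intervals are exact Poisson for ratios and Clopper-Pearson for percentages. For a count of 0, the share allowed is approximate, as 3 divided by the number of peaks. The code for the ratio was checked on simulated counts of known ratio. The step of the fold was 4.90, with a tolerance of 0.012. The peaks named are the 10 with the most tags, the 5 with the highest fold and ties, and the widest. The chromosomes named are the 5 highest and lowest in ratio with at least 3 expected and the 5 with the most tags. Bands with at least 5 peaks and runs of at least 4 are also named. Other peaks, bands and chromosomes (7, 15 and 19) were singled out after their values were seen. The regions and rules were chosen with earlier results of these data known.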

Additional observations from a re-analysis of the deposited data

Results flagged for a closer look

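Chromosomes X and Y lie outside the rule, and both had peaks at such positions. Chromosome X had 20 peaks in 7.40 Mb of placed sequence of its centromeric bands and flanks, against 18.1 expected, each of 5 to 7 tags, at a median fold of 18.3. Reference positions of chromosome Y had 14 peaks, against 6.91 expected, with 5 to 999 tags and a median fold of 10.6; 3 of them had 20 tags or more. Both are given because the comparisons above used them only within the whole list, and no control library was analysed to set them against. The line is from an ovarian carcinoma, so no chromosome Y is presumed in these cells. Where the tags placed on it come from was not tested.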

How the results depend on the processing

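Of 53 comparisons of a value with an alternative, 25 stayed within 1.5 times (counts) or within the interval of the value, 27 moved and 1 reversed. Shares of tags have no interval, and even small changes in them, such as from 37.2% to 38.0%, are among the 27. Over full lengths with gaps the density ratio was 0.576 instead of 1.85, since that length includes unplaced sequence, where almost no peak can lie. With 0.5 Mb flanks the share of tags was 36.1%. With 2 Mb flanks the density ratio was 1.65 and the share 38.1%. With bands alone there were 205 peaks and the share was 34.0%. With at least 8 tags there were 115 peaks, a ratio of 4.61 and a share of 61.7%. With a fold above the list median these were 106, 1.22 and 2.85%. With at least 20 tags, chosen after seeing the data like the remaining changes by chromosome, they were 52, 10.1 and 74.3%. With the expectation taken within each chromosome the ratio was 1.60. Without the deepest peak the share was 32.3% and without the 10 deepest 15.0%. Without chromosome 10 it was 30.8%, without chromosome 4 32.4%, without chromosome 6 33.7%, without chromosome 16 34.7% and without chromosome 2 38.0%. The next peak was within 1 kb for 8.64% and within 50 kb for 33.3%. Within 10 and 500 kb of the centromere gap lay 25.7% and 75.6% of the tags, and within 100 kb, without the deepest peak, 56.1%. These shifts follow from what each alternative keeps; no other cause was tested. No paired analysis was possible because there is 1 library per group and no test. Most peaks rest on 5 to 7 tags, so single shallow peaks carry little precision, and the few deep peaks decide every sum of tags.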
